A study of Homo sapiens and Mus musculus with 12 samples.

Results

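The p53 target and DNA damage genes are a set of 40 symbols that covers genes switched on by the tumour suppressor p53 and the proteins that sense and mark broken DNA. Human rows were taken by symbol and mouse rows by the same symbol in title case. The human table of 18304 genes listed 36 of the 40, and the mouse table of 22021 genes listed 36 by this rule and another 3 under mouse or older names (Trp53inp1, Trp53bp1 and H2afx), which were added. After the filter on low counts, 34 human and 37 mouse members were tested among 12727 human and 13189 mouse genes. PLK2, EDA2R, PHLDA3 and SPATA18 were not analysed here in the human table, nor Tnfrsf10c in the mouse table.

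Polyadenylated RNA was sequenced from 2 systems, each with 3 libraries a group. NK92MI, an established line of human natural killer (NK) cells that grows without added IL-2, was treated with BIX-01294 (BIX), an inhibitor of the histone methyltransferase EHMT2, or with the solvent DMSO. The labels give neither dose nor time, while the study states both for its functional assays of NK92MI cells. Splenic NK cells came from Ehmt2 flox/flox mice (WT) and from Ehmt2 flox/flox; Ncr1-iCre mice (KO), young adults on a C57BL/6J background that were matched for age and sex. Ncr1-iCre deletes floxed alleles in cells that express the NK receptor NKp46, so other cell types in a sort keep Ehmt2. The genotype field of the KO libraries reads Ezh2-KO, while their titles and the methods name EHMT2. Nothing says that the libraries of a group were separate cultures or separate animals, so p-values measure only the spread between these libraries.

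Ehmt2 was lower in KO than in WT libraries, at 171, 143 and 137 against 275, 284 and 285 CPM (counts per 1000000 counts of the library, after TMM scaling), and the log2 fold change was −0.91 (95% interval −1.14 to −0.67, adjusted p = 0.0162 by edgeR's quasi-likelihood test). EHMT2 was lower with BIX, at 40.4, 39.3 and 35.8 against 57.1, 61.6 and 54.3 CPM (log2 fold change −0.58, adjusted p = 0.000101 by edgeR). Total counts per library lay between 16579469 and 17165446 in NK92MI and between 25891680 (WT replicate 2) and 37438868 in mouse NK cells. All 12 NK markers searched were listed in each organism. WT replicate 2 stood apart from the other WT libraries in its marker genes: its summed NK markers were at 9534 CPM against 5614 and 5882, and its macrophage and monocyte markers at 3184 against 9715 and 6599. Of the mouse counts from 1 to 49, between 84.0% and 87.4% in each library were even numbers, against 45.1% to 46.7% in the human libraries, and the setting used for read pairs is not given in the sources used here. With the mouse counts halved, the members called were Brca2 and Parp1. In bulk RNA, fewer cells of a type and less RNA per cell cannot be told apart.

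When DNA breaks or replication stalls, the kinases ATM and ATR start a signal that spreads along chromatin through histone H2AX and the proteins MDC1, RNF8, RNF168, 53BP1 and BRCA1, and that reaches p53 through checkpoint kinases such as CHEK2. Stabilised p53 turns on genes that halt the cell cycle, repair DNA, adjust metabolism or kill the cell, and it also turns on MDM2 and PPM1D, which switch it off again. Several of these targets, among them the GADD45 and BTG genes, also respond to cytokines, growth signals and other stresses without p53. In lymphocytes BTG1 and BTG2 are known as genes of quiescence.

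In NK92MI cells, 7 of the 34 tested members rose with BIX and none fell, at the study's thresholds of an adjusted p under 0.01 and an absolute log2 fold change over 0.5. That is 20.6% of the members, while 6.24% of all genes tested rose and 5.43% fell. At an unadjusted p under 0.05, edgeR had 12 members higher (35.3%, against 22.9% of all genes) and 3 lower (8.82%, against 23.2%), the latter being PARP1, DDB2 and H2AX. DESeq2 also called 0 lower. The genes that rose were BTG1, TIGAR, GADD45B, GADD45A, PPM1D, BTG2 and ZMAT3. Without the fold change threshold, BRCA1, CCNG2 and RNF168 joined them, making 10 higher (29.4%, against 12.3% of all genes), and PARP1 was the single member lower (2.94%, against 11.3%). The BIX libraries lay wholly above the DMSO libraries for 11 members (32.4%, against 24.1% of all genes) and wholly below them for 3 (8.82%, against 23.9%). Over all tested members the median log2 fold change was 0.13, with 25 of 34 above 0, beside −0.01 over all genes.

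**Figure D1:**
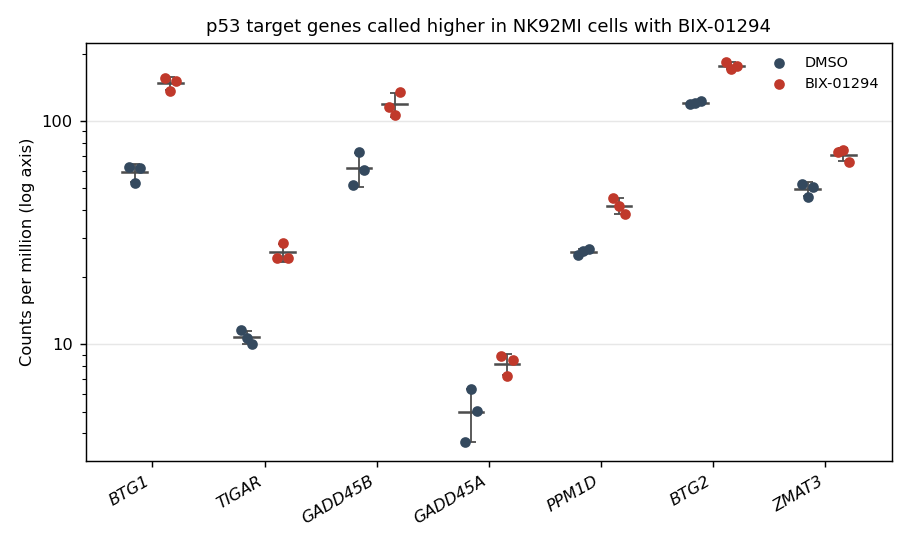
CPM on a log axis for the 7 members that rose with BIX-01294 in NK92MI cells; dots are libraries (DMSO dark blue, BIX-01294 red), horizontal bars are means and error bars SD of 3 libraries. BTG1 and TIGAR show the widest gaps between the groups (log2 fold changes of 1.33 and 1.26), and the groups are separate for each gene.

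Genes of cell cycle arrest held 4 of the 7 that rose. BTG1, an antiproliferative adaptor of the mRNA deadenylation machinery, stood at 155, 136 and 151 CPM with BIX and at 62.4, 52.6 and 61.7 CPM with DMSO. Every BIX library was above 2 times the mean of the DMSO libraries, with a log2 fold change of 1.33 (95% interval 1.15 to 1.50, adjusted p = 7.51e-08 by edgeR). BTG2, its relative and a classical p53 target, stood at 184, 172 and 176 against 119, 121 and 123 CPM. The groups were tight and separate, and the log2 fold change was 0.55 (0.42 to 0.68, adjusted p = 1.41e-05 by edgeR). Per kilobase of joined exons, BTG2 ranked second among the tested members in DMSO cells (43.9 CPM per kilobase), and BTG1 stood at 12.1. These lengths join the exons of all annotated transcripts of a gene, so the ranks depend on the annotation. PARP1, for example, had 18399 bases, and mouse Parp1 5293.

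The GADD45 genes encode small stress sensors that bind the MAP kinase kinase kinase MTK1 and cell cycle proteins. GADD45B, known also as a target of NF-kB, stood at 116, 106 and 135 CPM with BIX and at 51.6, 72.9 and 60.2 CPM with DMSO (log2 fold change 0.95, 0.71 to 1.20, adjusted p = 2.64e-05 by edgeR). GADD45A, the family member most closely tied to p53, was scarce at 8.89, 7.23 and 8.50 against 3.67, 6.31 and 5.03 CPM. Its groups did not overlap, and its log2 fold change was 0.71 (0.31 to 1.12, adjusted p = 0.00877 by edgeR). That call was lost without BIX replicate 1, control column 1 or control column 3, where the adjusted p rose to between 0.0319 and 0.0446 by edgeR. GADD45G, the third of the family, lay between 0.647 and 2.01 CPM with BIX and between 1.11 and 1.58 CPM with DMSO, so that its interval was wide (−0.70 to 0.95).

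CDKN1A, which encodes the cyclin-dependent kinase inhibitor p21 and is the best known arrest target of p53, was almost without reads in NK92MI. Its counts were 6, 2 and 0 with BIX and 1, 0 and 0 with DMSO, and a count of 0 allows up to about 0.177 CPM in BIX library 3, counting error only. It was below the filter and was not tested. CCNG2, a cyclin of arrested cells, stood at 49.2, 50.0 and 47.4 against 39.2, 36.9 and 37.7 CPM, a log2 difference of 0.36 (adjusted p = 0.00192 by edgeR) that lay under the fold change threshold. CCNG1, a p53 target that recruits a phosphatase to MDM2, had a log2 fold change of 0.13 and the polo-like kinase gene PLK3 one of 0.32 (adjusted p = 0.182 and 0.115 by edgeR). All 8 tested genes of this role had estimates above 0, with a median of 0.46.

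The feedback genes were split. PPM1D encodes the phosphatase WIP1, which removes activating phosphates from ATM, CHEK2, H2AX and p53, and it stood at 45.1, 41.6 and 38.3 CPM with BIX against 25.3, 26.3 and 26.6 CPM with DMSO. Its groups were far apart relative to their spread, with a log2 fold change of 0.68 (0.49 to 0.87, adjusted p = 5.87e-05 by edgeR). MDM2, the ubiquitin ligase of p53 and a sensitive p53 target, stood at 109, 118 and 99.8 against 105, 108 and 110 CPM. Its groups overlapped, and its interval ran from −0.14 to 0.17 around a log2 fold change of 0.02. MDM4, which holds p53 inactive, stood at 92.5, 92.8 and 92.3 against 99.8, 91.4 and 92.5 CPM (log2 fold change −0.03, −0.17 to 0.11).

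Among metabolic targets, TIGAR, a fructose bisphosphatase that lowers glycolysis and feeds the pentose phosphate pathway, stood at 24.5, 28.5 and 24.5 CPM with BIX and at 11.6, 10.7 and 10.1 CPM with DMSO. Its log2 fold change of 1.26 (1.02 to 1.50, adjusted p = 1.8e-06 by edgeR) came next to that of BTG1. SESN1, a sestrin that restrains mTORC1, had 16.0, 23.4 and 19.9 against 16.6, 15.0 and 17.3 CPM, and the groups overlapped (log2 fold change 0.28, adjusted p = 0.113 by edgeR). FDXR, the ferredoxin reductase of mitochondria, and BLOC1S2, a subunit of lysosome positioning complexes, had log2 fold changes of −0.16 and 0.16 (adjusted p = 0.395 and 0.106 by edgeR).

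ZMAT3, an RNA-binding zinc finger protein and p53 target, was the single gene of death and survival that rose, at 72.9, 74.1 and 65.4 against 52.4, 45.8 and 50.8 CPM. Its log2 fold change of 0.51 (0.34 to 0.68, adjusted p = 0.000248 by edgeR) was just over the threshold, and it was between 0.45 and 0.50 without BIX replicate 1, BIX replicate 2 or control column 2. TP53INP1, which helps p53 reach its death targets, was near the filter at 1.52, 1.29 and 0.827 against 0.931, 0.585 and 0.651 CPM. The exonuclease gene AEN and TRIAP1, a small inhibitor of apoptosis, had log2 fold changes of 0.16 and 0.14 with overlapping groups. TNFRSF10C, a decoy receptor for TRAIL, had at most 5 counts in a library and was not tested.

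The DNA repair targets of p53 showed no call. DDB2, which finds ultraviolet lesions, stood at 56.6, 57.4 and 56.5 CPM with BIX against 65.9, 68.1 and 66.9 CPM with DMSO, wholly separate but with a small log2 difference of −0.24 (adjusted p = 0.0131 by edgeR). RRM2B, the p53-induced subunit of ribonucleotide reductase, had a log2 fold change of 0.21 (adjusted p = 0.0522 by edgeR). The damage recognition gene XPC and POLH, the polymerase that bypasses ultraviolet lesions, lay at −0.06 and −0.01. The median of the 4 was −0.03.

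Of the 11 damage sensing genes none was called. BRCA1, which directs homologous recombination, stood at 307, 346 and 283 CPM with BIX against 228, 215 and 222 CPM with DMSO, and its log2 fold change of 0.494 lay just under the threshold of 0.5 (adjusted p = 0.000177 by edgeR). It passed without BIX replicate 1, BIX replicate 3 or control column 1 (0.51 to 0.56). RNF168, the ubiquitin ligase that writes the docking mark for 53BP1, stood at 113, 108 and 125 against 95.1, 92.3 and 89.3 CPM (log2 fold change 0.32, adjusted p = 0.00262 by edgeR). PARP1, the poly(ADP-ribose) polymerase that binds strand breaks, ran the other way, at 356, 350 and 349 against 436, 458 and 423 CPM. The PARP1 groups did not overlap, with a log2 fold change of −0.32 (−0.45 to −0.19, adjusted p = 0.000863 by edgeR).

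ATM, ATR, CHEK2, BRCA2 and RNF8 had log2 fold changes between 0.03 and 0.09. TP53BP1, MDC1 and H2AX had estimates of −0.14, −0.15 and −0.21 (adjusted p = 0.138, 0.210 and 0.0877 by edgeR). H2AX ranked first among the tested members in DMSO cells by joined exons, at 101 CPM per kilobase. The role had a median of 0.04.

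**Figure D2:**
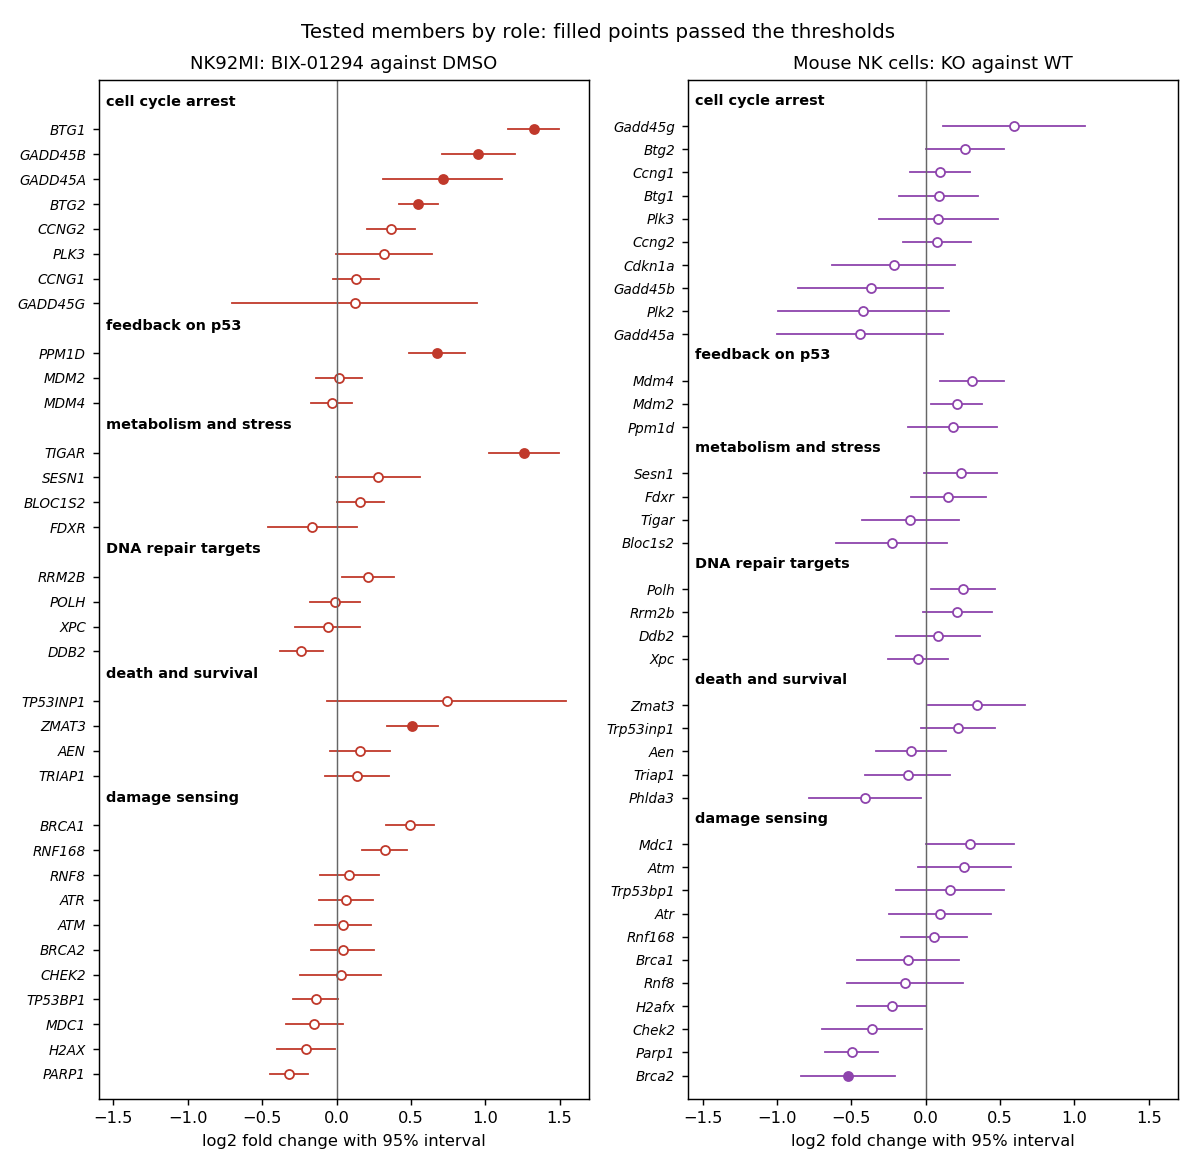
Log2 fold change (x axis) of each tested member, ordered within its role, with its 95% interval as a line: BIX-01294 against DMSO in NK92MI on the left and KO against WT mouse NK cells on the right. Filled points passed the thresholds (adjusted p under 0.01 on the left and under 0.05 on the right, with an absolute log2 fold change over 0.5): 7 genes on the left, all higher, and Brca2 on the right, lower.

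The promoters of the 5 genes that rose with the smallest adjusted p are printed so that the bases before their starts can be compared. Each is the 250 bases before the start in RefSeq, GRCh38.p14, written 5′ to 3′ on the strand of the gene: BTG1 at chr12:92145847-92146096 (minus), TIGAR at chr12:4320963-4321212 (plus), PPM1D at chr17:60599943-60600192 (plus), BTG2 at chr1:203305269-203305518 (plus) and GADD45B at chr19:2475877-2476126 (plus). Capitals mark matches on either strand to TGACGT, the core of the cyclic AMP response element bound by CREB and ATF proteins, and to CCAAT, the box bound by NF-Y.
BTG1: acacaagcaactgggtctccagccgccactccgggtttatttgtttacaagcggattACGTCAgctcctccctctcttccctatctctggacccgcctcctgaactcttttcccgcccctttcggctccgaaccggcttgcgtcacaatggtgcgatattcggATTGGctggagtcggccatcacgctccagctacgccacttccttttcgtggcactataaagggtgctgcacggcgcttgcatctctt
TIGAR: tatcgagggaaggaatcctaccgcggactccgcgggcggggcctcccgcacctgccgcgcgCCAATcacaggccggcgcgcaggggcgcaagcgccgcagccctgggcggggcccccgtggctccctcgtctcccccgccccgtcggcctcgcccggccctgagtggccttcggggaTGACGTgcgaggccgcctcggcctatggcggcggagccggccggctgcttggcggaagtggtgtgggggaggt
PPM1D: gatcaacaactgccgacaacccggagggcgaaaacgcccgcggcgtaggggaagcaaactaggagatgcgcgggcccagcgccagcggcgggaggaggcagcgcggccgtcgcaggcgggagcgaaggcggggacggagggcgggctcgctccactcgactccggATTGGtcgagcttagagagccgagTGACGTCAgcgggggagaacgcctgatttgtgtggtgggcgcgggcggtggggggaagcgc
BTG2: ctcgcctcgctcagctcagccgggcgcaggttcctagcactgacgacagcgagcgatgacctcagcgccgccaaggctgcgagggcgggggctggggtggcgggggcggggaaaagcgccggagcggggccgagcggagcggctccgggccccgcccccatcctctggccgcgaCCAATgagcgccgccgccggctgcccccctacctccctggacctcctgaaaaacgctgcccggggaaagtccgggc
GADD45B: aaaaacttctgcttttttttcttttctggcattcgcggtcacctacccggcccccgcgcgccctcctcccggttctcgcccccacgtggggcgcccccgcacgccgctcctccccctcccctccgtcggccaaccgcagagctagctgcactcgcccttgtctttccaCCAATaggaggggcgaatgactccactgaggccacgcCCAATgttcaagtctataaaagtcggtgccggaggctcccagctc

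TGACGT or its reverse complement stood in the windows of BTG1, TIGAR and PPM1D. In BTG1 it lay 193 to 188 bases before the start, in TIGAR 73 to 68, and in PPM1D 2 overlapping matches form the palindrome TGACGTCA from 61 to 54 bases before it. Of the 31 tested members with a RefSeq promoter, 6 held the core (19.4%, against 8.62% of 27305 genes). The other 3 were XPC, BRCA1 and RNF168, of which XPC had a log2 fold change of −0.06. CCAAT was found in 20 of 31 (64.5%, against 37.0%), among them all 5 genes printed. The decamer half-site of p53, searched by its consensus, was found in 3 of 31 (9.68%, against 6.80%): SESN1, FDXR and AEN, none of which was called. The AP-1 site TGANTCA stood in 1, MDM2 (3.23%, against 8.06%). All listed starts of a gene were searched on both strands, so genes with more starts had more windows. The motifs were chosen after the values were seen. The 27305 genes include many that were not tested here, so the shares compare unlike sets. The printed windows held between 56.4% (BTG1) and 76.8% (TIGAR) G or C, beside a median of 58% over all promoters. Nothing was tested, and p53 sites farther away or in introns lie outside these windows.

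Genes of the pathway beyond the 40 were read from further lists at the same thresholds, by which 6.24% of all genes tested rose and 5.43% fell. Of 26 other p53 targets tested, 10 rose with BIX and 1 fell, with a median log2 fold change of 0.29. FAS, the death receptor, stood at 118, 102 and 113 against 52.4, 48.8 and 54.9 CPM (log2 fold change 1.10, adjusted p = 2.7e-07 by edgeR). PMAIP1, which encodes the BH3-only protein NOXA, stood at 120, 105 and 119 against 56.3, 55.8 and 59.3 CPM (2.01-fold, adjusted p = 3.42e-07 by edgeR). For both genes the BIX libraries lay well clear of the DMSO libraries, and IER5 and TRAF4 rose likewise (1.21 and 1.14). The gene that fell was the carboxylesterase CES2 (−0.91), and the death genes BAX and BBC3 lay at −0.06 and −0.26 with overlapping groups (adjusted p = 0.639 and 0.555 by edgeR). CES2, BAX and BBC3 were picked out after their values were seen.

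The 58 other DNA damage and repair genes had a median of −0.05, and 1 of them fell (the uracil glycosylase UNG, −0.52). How many of them rose is not reported here. Of 8 upstream genes tested, 0 were called by edgeR in either direction. The smallest adjusted p there belonged to the kinase TP53RK (log2 fold change 0.40) and the checkpoint kinase CHEK1 (0.32), both under the fold change threshold.

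Genes of other programs were read in the same libraries, where 6.24% of all genes tested rose and 5.43% fell. Of 18 immediate early genes, 8 rose and 0 fell (median 0.53), led by JUN (1.76), KLF6 (0.91), FOSL2 (0.83) and JUNB (1.35). Of 10 integrated stress response genes, 3 rose (DDIT3 at 1.49, SLC7A11 and DDIT4) and 2 fell (TRIB3 and PSAT1). Of 33 cell cycle genes, 1 rose (RRM2, 0.69) and 1 fell (CDC20, −0.87), with 25 of 33 below 0 and a median of −0.14. Their part in the values of BTG1, GADD45B and the other members was not tested.

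**Figure D3:**
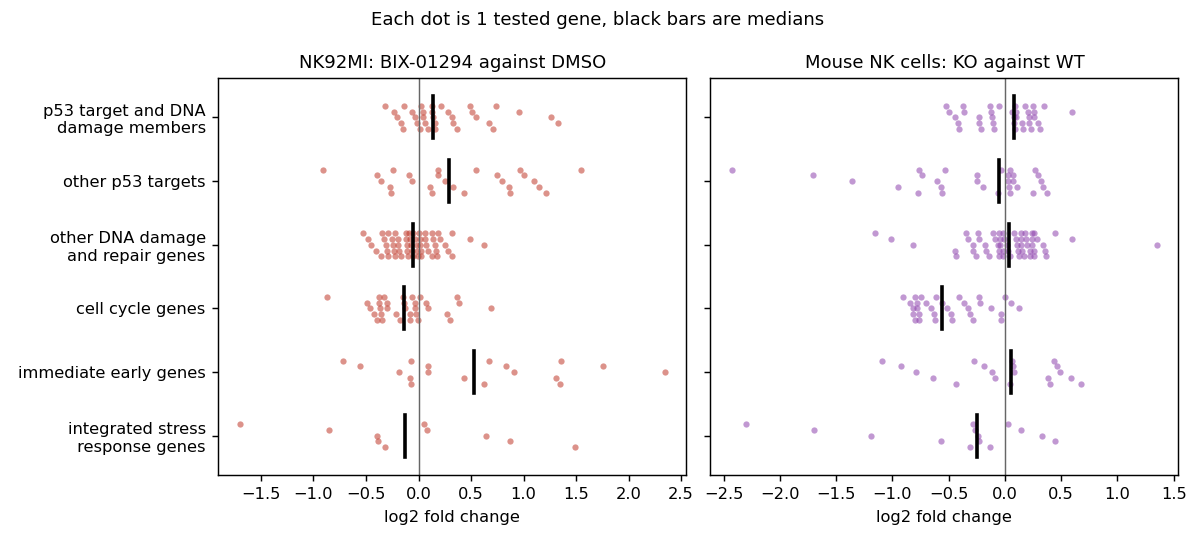
Log2 fold change (x axis) of every tested gene of 6 lists (rows), 1 dot a gene and a black bar at the median, in NK92MI (left, red) and mouse NK cells (right, purple). In NK92MI the medians of the other p53 targets (0.29) and the immediate early genes (0.53) lie to the right of 0, and in mouse NK cells the cell cycle genes lie to the left (median −0.56).

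In mouse NK cells no member passed the thresholds used for NK92MI, where edgeR called 0% of all genes tested as higher and 0% as lower. At an unadjusted p under 0.05, edgeR had 5 members higher (13.5%, against 15.8% of all genes) and 4 lower (10.8%, where all genes had 2639 of 13189 lower). DESeq2 called 1 member lower and 0 higher by the first thresholds, while of all genes it had 401 higher (2.44%) and 1098 lower (6.67%). By edgeR, an adjusted p under 0.05 with the same fold left 0 of 37 members higher (against 2.82% of all genes) and 1 lower, Brca2 (2.7%, against 6.69%). The KO libraries lay wholly above the WT libraries for 7 members and wholly below for 7, or 18.9% each, against 19.1% and 19.3% of all genes. Those shares are close to the background. Over the 37 members the median log2 fold change was 0.08, with 21 above 0, beside 0.01 over all genes.

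Brca2, a gene of homologous recombination, stood at 5.68, 6.28 and 5.68 CPM in KO libraries and at 8.77, 8.30 and 8.22 CPM in WT libraries. Its groups were separate and its log2 fold change was −0.52 (−0.84 to −0.20, adjusted p = 0.0486 by edgeR), just past both thresholds. Leaving out any 1 library other than WT replicate 2 ended the call (adjusted p = 0.0717 to 0.158 by edgeR). Parp1 stood at 100, 102 and 94.4 against 139, 134 and 147 CPM. Here the gap was wide relative to the spread, and the log2 fold change of −0.496 (−0.67 to −0.32, adjusted p = 0.0256 by edgeR) lay just under the fold threshold. Without WT replicate 2, Parp1 was at −0.52 with an adjusted p of 0.00645 by edgeR.

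Other damage sensing genes did not pass. Chek2 stood at 8.16, 6.84 and 7.13 against 9.77, 8.46 and 10.2 CPM, separate but with an adjusted p of 0.122 by edgeR (log2 fold change −0.36). H2afx, the mouse row for H2AX, stood at 91.3, 115 and 101 against 118, 126 and 117 CPM (−0.23, adjusted p = 0.146 by edgeR). Mdc1 and Atm had estimates of 0.30 and 0.26, and Brca1, Rnf8, Atr, Rnf168 and Trp53bp1 lay between −0.14 and 0.16. Of the 11 genes, 5 had estimates above 0 and 6 below.

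The feedback genes had positive estimates without passing. Mdm2 stood at 102, 104 and 103 CPM in KO libraries against 84.5, 92.9 and 90.5 CPM in WT libraries. The KO values were closely grouped above every WT value, at a log2 fold change of 0.21 (0.04 to 0.38, adjusted p = 0.0891 by edgeR). Mdm4 stood at 149, 162 and 178 against 123, 135 and 137 CPM, also without overlap (0.31, 0.10 to 0.52, adjusted p = 0.0628 by edgeR). Ppm1d overlapped between the groups, at 0.18.

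Arrest genes differed among themselves. Cdkn1a, unlike in the human line, was expressed, at 12.2, 9.19 and 10.6 against 14.0, 9.74 and 13.4 CPM, and the groups overlapped (−0.21, −0.63 to 0.20). Gadd45g stood at 25.3, 32.0 and 20.5 against 14.2, 21.5 and 15.8 CPM (0.60, 0.12 to 1.07, adjusted p = 0.0864 by edgeR). Without WT replicate 2, the highest WT library for this gene, Gadd45g was at 0.79 and passed (adjusted p = 0.0222 by edgeR). In that fit 905 of all 13411 genes tested passed as higher. Gadd45a and Gadd45b had estimates of −0.44 and −0.37 with overlapping groups, and Gadd45b was called lower without KO replicate 1. Btg1, first among the tested members in WT cells at 141 CPM per kilobase of joined exons, stood at 710, 795 and 866 against 668, 775 and 789 CPM (0.09, −0.18 to 0.36). Btg2 lay at 0.26 with KO above WT in all libraries (adjusted p = 0.140 by edgeR), Plk2 at −0.42, and Ccng1, Ccng2 and Plk3 between 0.08 and 0.10.

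**Figure D4:**
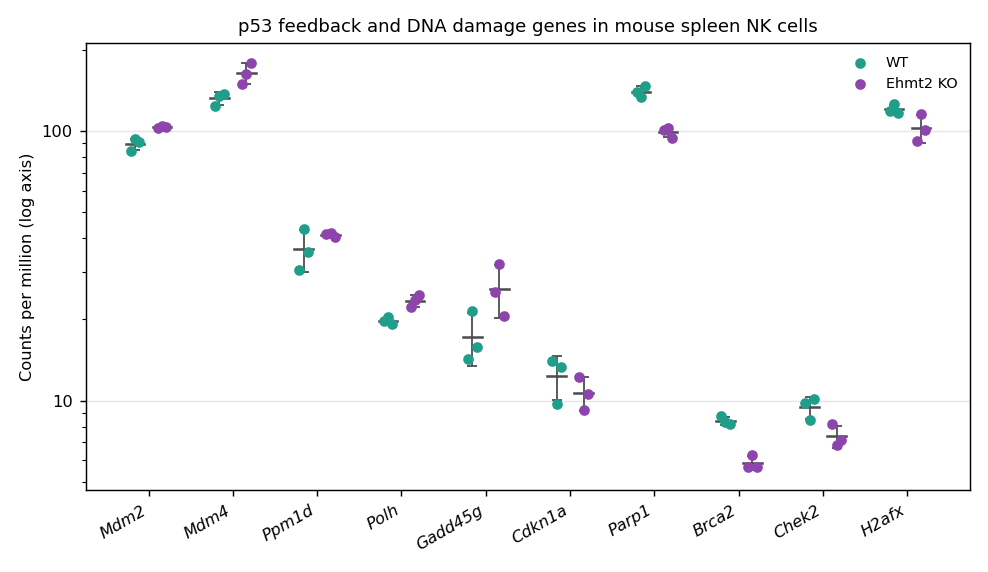
CPM on a log axis for 10 members in mouse spleen NK cells; dots are libraries (WT green, KO purple), horizontal bars are means and error bars SD of 3 libraries. Mdm2 and Mdm4 sit higher and Parp1 and Brca2 lower in every KO library, and Cdkn1a overlaps between the groups; of the 10 genes Brca2 alone passed both thresholds.

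None of the metabolic, repair or survival targets passed in mouse NK cells at an adjusted p under 0.05 by edgeR, which had Polh and Zmat3 higher and Phlda3 lower at an unadjusted p under 0.05 and under DESeq2 called none of them. Polh stood at 22.2, 23.6 and 24.6 against 19.7, 20.3 and 19.3 CPM (0.25, adjusted p = 0.102 by edgeR). Phlda3, which competes with AKT for membrane lipids, stood at 5.06, 4.63 and 5.18 against 5.83, 6.52 and 7.39 CPM (−0.41, adjusted p = 0.119 by edgeR). Zmat3 was at 0.34 and Tigar, at 8.97, 8.24 and 7.62 against 9.41, 7.95 and 9.29 CPM, at −0.10 (−0.43 to 0.22). Sesn1, Rrm2b and Trp53inp1 lay at 0.24, 0.21 and 0.22, each with KO above WT in all libraries. Fdxr, Bloc1s2, Xpc, Ddb2, Aen and Triap1 lay between −0.23 and 0.15 with overlapping groups. Spata18, with 2 counts in WT replicate 3 and 0 elsewhere, and Eda2r, with at most 6 counts a library, were not tested.

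At an adjusted p under 0.05 with the fold threshold, edgeR had 2.82% of all mouse genes tested higher and 6.69% lower. Of the 33 cell cycle genes in mouse NK cells 15 were lower by this rule and 0 higher (median −0.56, 30 below 0), led by Ube2c (−0.84), Ccna2 (−0.80), Rrm2 (−0.63) and Aurkb (−0.76). That count was 12 without KO replicate 1, 18 without WT replicate 2, 1 without WT replicate 1 and 0 without KO replicate 2, KO replicate 3 or WT replicate 3, while the median stayed between −0.66 and −0.45. Of 30 other p53 targets 2 were lower (Gdf15 at −2.43 and Ninj1 at −0.95), 0 higher, and the median was −0.05. The count lower was 4 without KO replicate 1, 1 without WT replicate 1 and 0 without KO replicate 2, KO replicate 3 or WT replicate 3, and it was 7 without WT replicate 2, with DESeq2 and with the replicate block. More of all genes were also lower by this rule, at 1835 of 13411 without WT replicate 2 and 1668 of 16464 with DESeq2. Of 58 other DNA damage and repair genes 2 were lower (Clspn at −0.81 and Apex1 at −1.01), with a median of 0.04. Of 20 immediate early genes 2 were higher (Dusp2 and Nr4a2), and of 14 integrated stress response genes 1 was lower (Asns). The genes called in these last 3 lists also went to 0 without KO replicate 2, KO replicate 3, WT replicate 1 or WT replicate 3.

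Markers of other cells were also read in the mouse groups. Their summed levels were separate for macrophages and monocytes, B cells, and erythroid cells and platelets. For neutrophils, dendritic cells and T cells the sums overlapped. All 12 macrophage and monocyte markers had negative estimates, 8 of them called, with summed levels of 1617 to 2959 CPM in KO and 3184 to 9715 CPM in WT libraries. The number called was 12 without WT replicate 2 and 0 without KO replicate 2, KO replicate 3, WT replicate 1 or WT replicate 3. All 10 B cell markers (98.4 to 536 against 571 to 1639 CPM) and the 9 neutrophil markers tested (42.3 to 208 against 193 to 1515 CPM) were below 0. Of the 8 dendritic cell markers 7 were below 0 (1180 to 1431 against 1120 to 1457 CPM), as were 5 of 7 T cell markers (95.7 to 206 against 147 to 246 CPM) and all 10 erythroid and platelet markers (1250 to 1391 against 1751 to 2633 CPM). Called lower were 0 B cell, 2 neutrophil, 2 dendritic cell and 6 erythroid and platelet markers. The 1 T cell marker called, Cd3g, was higher. Leaving out single libraries moved these counts too. The neutrophil genes Ly6g and Elane were at 0 in KO replicates 2 and 3, and no searched marker that was listed was at 0 in every KO library. The 12 NK markers had positive estimates, 7 of them called, with sums of 10751 to 12541 against 5614 to 9534 CPM. Here too 12 were called without WT replicate 2, and 0 without any 1 of the same 4 libraries. Over all 13411 genes tested without WT replicate 2, 905 were called higher and 1835 lower. The part of all these markers in the values of Brca2, Parp1 and the other mouse members was not tested.

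Side by side, 34 members were tested in both organisms. The estimates had the same sign for 18 of them (52.9%, against 49.4% of 8790 shared symbols), with 15 higher in both and 3 lower in both. PARP1 was the single member with an adjusted p under 0.05 by edgeR in both, at −0.32 with BIX and −0.50 in KO cells. Of the 7 genes that rose with BIX, GADD45A, GADD45B and TIGAR had negative estimates in KO cells (−0.44, −0.37 and −0.10), and BTG1, BTG2, PPM1D and ZMAT3 positive ones (0.09, 0.26, 0.18 and 0.34). BRCA2 was at 0.04 with BIX, where its mouse counterpart was the gene called lower. The inhibitor and the deletion differ in organism, cell source and duration, and these cannot be told apart.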

How the data were processed

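The authors trimmed reads with fastp 0.23.4, aligned them with STAR 2.7.11b (2 mismatches allowed) to GRCh38/hg38 or GRCm38/mm10 and counted reads per gene with HTSeq 2.0.3. The deposited values are raw counts, 1 table per organism. The annotation release and the strand setting are not given in the sources used here. Every gene was fitted with edgeR 4.0.16 in R 4.3.3 (TMM, filterByExpr, quasi-likelihood test, Benjamini-Hochberg adjustment over all genes tested), 3 against 3 libraries without a block. CPM use TMM-scaled totals, and the standard error is the log2 fold change divided by the square root of F. Exon lengths (the joined exons of all annotated transcripts of a gene) and positions came from GENCODE v44 and vM21, promoters from RefSeq GRCh38.p14. Alternatives were DESeq2 1.42.0, its size factors, library totals, no filter, each library left out, the replicate block, other thresholds and, chosen after seeing the data, halved mouse counts. The members, lists and motifs were chosen with earlier results of these data known. Called members are given by library, other members by value or range, and from each further list up to 4 genes with the smallest adjusted p, except that the results of 2 genes are not reported here. The procedure was tested on simulated data. Intervals of fold changes came from the edgeR fit and include the spread between libraries, while limits for 0 counts (3 counts) cover counting error only. In the human table the DMSO group appears as 3 columns called control, which were assigned to the group and not to single samples.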

Additional observations from a re-analysis of the deposited data

How the results depend on the processing

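For BIX against DMSO, the count of members called higher was 6 to 8 over the alternative fits (8 without BIX replicate 3) and 10 at an adjusted p under 0.05 whatever the fold change. BTG1, TIGAR, BTG2, GADD45B and PPM1D kept their calls in all 10 alternative fits, while ZMAT3 lost its call in 4 (library totals only and 3 with a library left out) and GADD45A in 3. The count lower went from 0 to 2 at an adjusted p under 0.05 whatever the fold change. MDM2, never near a call, had log2 fold changes between −0.041 and 0.080 with libraries left out in turn, negative without BIX replicate 2 (−0.041) and control column 1 (−0.0066).

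For KO against WT, the count lower at an adjusted p under 0.01 went from 0 to 1 with DESeq2 and to 0 to 1 with libraries left out in turn (1 without WT replicate 2), and to 2 at an adjusted p under 0.05 whatever the fold change. At an adjusted p under 0.05, the count higher went from 0 to 1 (Gadd45g) with DESeq2, and to 0 to 1 with libraries left out in turn (1 without WT replicate 2). The count lower went from 1 to 2 with DESeq2, with its size factors, with halved counts (Parp1 joining) and whatever the fold change, to 0 with no filter, and to 0 to 2 with libraries left out in turn (2 without KO replicate 1 or WT replicate 2). Without KO replicate 1 the 2 were Gadd45b and Parp1, and Brca2 lost its call. Without WT replicate 2 they were Brca2 and Parp1. The log2 fold change of Ehmt2 lay between −1.01 and −0.84 with libraries left out in turn, and its adjusted p by edgeR was above 0.05 without KO replicate 2 (0.0986), KO replicate 3 (0.121) or WT replicate 3 (0.0587). The cause of these shifts was not tested.

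The deviations of same-numbered KO and WT libraries correlated at 0.28, 0.35 and −0.19. With 3 libraries a group, these values cannot tell whether the mouse replicate numbers pair the libraries. With the replicate block, 1 member was called higher (Gadd45g, 0.59, adjusted p = 0.0167 by edgeR) and 0 lower at an adjusted p under 0.05 (Brca2, −0.52, adjusted p = 0.0505 by edgeR). For BIX against DMSO, no paired analysis was possible because the human control columns carry no replicate number of the labels.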
